A study of Mus musculus with 12 samples.

Results

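The 9 genes described here, *Pf4*, *Ppbp*, *Itga2b*, *Itgb3*, *Gp1ba*, *Gp1bb*, *Gp5*, *Gp6* and *Gp9*, encode proteins of megakaryocytes and of the platelets that bud from them. They were taken by symbol from the count tables of 2 mouse lines, where each was found once among 23420 listed genes. RNA came from whole embryos at E12.5, and the libraries form 4 groups of 3, each library from 1 embryo. In the *Carm1* line, labelled C57BL/6, *Carm1* KO/KO embryos are homozygous for Carm1tm1Mtb, a constitutive allele lacking exons 2 and 3. In the *Pax3* line, kept as a closed colony of mixed strain background, *Pax3* Sp2H/Sp2H embryos are homozygous for the constitutive Splotch allele Pax3Sp2h. Wild-type embryos of each line served as its controls, no library was shared between the lines, and all embryos came from intercrosses of heterozygous mice. CARM1 is an arginine methyltransferase and PAX3 a transcription factor of neural crest and muscle progenitors, and the study asked whether loss of *Carm1* acts through *Pax3*.

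Megakaryocytes arise in the yolk sac and the fetal liver from progenitors that they share with red cells, under GATA1, FLI1, RUNX1 and NF-E2. They store the chemokines PF4 and PPBP in alpha granules, for release when platelets are activated. On the platelet surface the glycoprotein Ib-IX-V complex binds von Willebrand factor, glycoprotein VI binds collagen, and the integrin made of ITGA2B and ITGB3 binds fibrinogen.

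Total counts per library ranged from 17183344 to 23518692, of which 1414 to 2319 fell on the 9 genes. Levels are given as CPM, the usual scaling of counts to library size, with TMM factors, and every value is an average over all tissues of an embryo. The targeted genes were examined first. *Carm1* stood at 71.3, 69.3 and 76.2 CPM in the *Carm1* KO/KO libraries against 151, 145 and 137 in wild type (0.501 of wild type, adjusted *P* = 1.2e-15, edgeR). *Pax3* stood at 22.4, 22.0 and 18.1 CPM in the *Pax3* Sp2H/Sp2H libraries against 30.9, 25.0 and 28.3 in wild type (-0.43, adjusted *P* = 0.0014, edgeR). Both targeted genes were thus below every control of their own line, and their remaining counts are per gene, not per exon. *Pax3* was higher in *Carm1* KO/KO embryos, at 29.0 CPM against 22.3 (0.37, adjusted *P* = 0.0010, edgeR). *Carm1* did not pass in the *Pax3* line (-0.07, adjusted *P* = 0.38, edgeR). Wild-type replicate 3 of the *Carm1* line, *Pax3* Sp2H/Sp2H replicate 3 and wild-type replicates 2 and 3 of the *Pax3* line held at least 4447 counts on 4 Y-linked genes, and the other libraries 23 at most.

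The levels of the 9 genes were compared per kilobase of the longest annotated transcript. In *Carm1* wild-type embryos *Pf4* stood at 46.1 CPM per kb, *Ppbp* at 11.8, *Itga2b* at 7.06 and *Itgb3* at 5.10. *Gp1bb* followed at 3.27 CPM per kb, *Gp9* at 3.25, *Gp1ba* at 1.76, *Gp5* at 1.32 and *Gp6* at 0.116. Of the 2087 exonic bases of *Gp1bb*, 1902 are shared with another gene, as given below. Its level per kb and its place in the order therefore depend on how the counting treated these bases. The values of *Itga2b* and *Itgb3*, of *Gp1bb* and *Gp9*, and of *Gp1ba* and *Gp5* overlapped between libraries. Within each of these wild-type libraries *Itga2b* stood above *Itgb3*. *Gp1ba* stood above *Gp5* in each as well, in replicate 1 only by 1.90 against 1.86 CPM per kb. The order of *Gp1bb* and *Gp9* differed between libraries and is not resolved. *Pax3* wild-type embryos gave the same leading genes on this scale, with *Pf4* at 31.4, *Ppbp* at 13.2 and *Itga2b* at 5.60 CPM per kb. *Gp6* was the lowest in all 4 groups, at 9 to 20 counts per library. All 9 genes passed the filter on low counts in both lines.

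*Ppbp* and *Pf4* are neighbours. On chromosome 5 (GRCm38), *Ppbp* lies at chr5:90768518-90770063 and *Pf4* at chr5:90772435-90773383, both on the plus strand with 2371 bases between them. The other genes are at chr6:87778072-87779768 (*Gp9*, plus strand), chr7:4363965-4397744 (*Gp6*, minus), chr11:70639122-70642036 (*Gp1ba*, plus), chr11:102453297-102470122 (*Itga2b*, minus), chr11:104608000-104670476 (*Itgb3*, plus), chr16:18620317-18622403 (*Gp1bb*, minus) and chr16:30307685-30310779 (*Gp5*, minus). Promoter sequences from RefSeq (GRCm38.p6) matched 8 of the 9 genes. The 250 bases before the annotated start were searched on both strands for words bound by factors of the lineage. A GATA word (any of AGATAA or AGATAG or TGATAA or TGATAG) occurred in 4 of 8 promoters (*Gp1ba*, *Gp1bb*, *Gp5* and *Gp6*) and in 27.1% of 27025 promoters. The ETS word GGAAGT occurred in 5 of 8 (*Pf4*, *Ppbp*, *Itga2b*, *Gp5* and *Gp9*) and in 20% of all promoters. Each of the 8 held a GATA or an ETS word, as did 42.1% of all promoters, and none held the NF-E2 word TGAGTCA, which 4.43% of all promoters did. These words do not overlap each other in the 8 promoters, and a match is a description of letters, not evidence that a factor binds there. The promoters of both chemokines, which differed most between the lines, and of both chains of glycoprotein Ib are shown 5′ to 3′ on the strand of the gene, with the ETS word (read here as its complement ACTTCC) or the GATA words of either strand in capitals.
Pf4, chr5:90772185-90772434, plus strand: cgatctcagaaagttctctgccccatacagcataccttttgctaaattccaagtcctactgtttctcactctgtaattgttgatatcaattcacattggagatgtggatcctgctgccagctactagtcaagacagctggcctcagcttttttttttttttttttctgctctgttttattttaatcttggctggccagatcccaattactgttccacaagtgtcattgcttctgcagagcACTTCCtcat
Ppbp, chr5:90768268-90768517, plus strand: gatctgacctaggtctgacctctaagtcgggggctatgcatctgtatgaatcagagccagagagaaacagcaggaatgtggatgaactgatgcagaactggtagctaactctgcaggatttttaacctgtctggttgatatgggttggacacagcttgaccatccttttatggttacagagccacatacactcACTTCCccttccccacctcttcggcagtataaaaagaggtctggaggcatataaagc
Gp1ba, chr11:70638872-70639121, plus strand: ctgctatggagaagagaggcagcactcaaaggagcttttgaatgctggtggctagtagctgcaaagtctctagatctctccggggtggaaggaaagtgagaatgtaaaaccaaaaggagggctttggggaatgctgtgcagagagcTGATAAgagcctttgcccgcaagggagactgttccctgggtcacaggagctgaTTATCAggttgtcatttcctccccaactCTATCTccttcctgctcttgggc
Gp1bb, chr16:18622404-18622653, minus strand: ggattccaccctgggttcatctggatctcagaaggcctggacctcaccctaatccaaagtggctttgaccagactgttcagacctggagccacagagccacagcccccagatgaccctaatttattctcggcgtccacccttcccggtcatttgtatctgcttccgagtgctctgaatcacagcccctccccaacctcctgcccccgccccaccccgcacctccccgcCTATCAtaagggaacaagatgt
The ETS word ends 5 bases before the start of *Pf4* and 52 bases before that of *Ppbp*. The GATA words of *Gp1ba* begin 104, 51 and 23 bases before its start, and that of *Gp1bb* 22 bases before its start.

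In the *Carm1* line the chemokine genes fell. *Pf4*, whose product neutralizes heparin, stood at 15.7, 15.0 and 15.9 CPM in *Carm1* KO/KO libraries and at 27.5, 23.0 and 30.9 in wild type. The mutant libraries lay within 1 CPM of each other and below every wild-type library, at 0.576 of the wild-type level (log2 fold change -0.80, SE 0.093, adjusted *P* = 2.4e-07, edgeR). *Ppbp*, the precursor of a neutrophil-attracting chemokine, stood at 6.04, 5.38 and 6.07 CPM in *Carm1* KO/KO libraries and at 11.7, 10.9 and 15.7 in wild type. These groups did not overlap either, and the mutant level was 0.457 of wild type (-1.13, SE 0.14, adjusted *P* = 4.1e-07, edgeR). In whole-embryo RNA, fewer megakaryocytes and less RNA per megakaryocyte cannot be told apart. Both genes kept their call under all 15 alternatives in processing, with *Pf4* between -0.91 and -0.69 and *Ppbp* between -1.24 and -0.95. Without wild-type replicate 3, the 1 library of this line with Y-linked counts, the values were -0.69 for *Pf4* and -0.95 for *Ppbp*. Of 15811 genes tested in this line, 13.3% were called, and 3 of the 9 genes were called, all lower, against 7.83% of all genes. Of the other chemokine genes of the same cluster, none held enough counts to be tested in the *Carm1* line, and *Cxcl5* was tested and not called in the *Pax3* line.

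**Figure D1:**
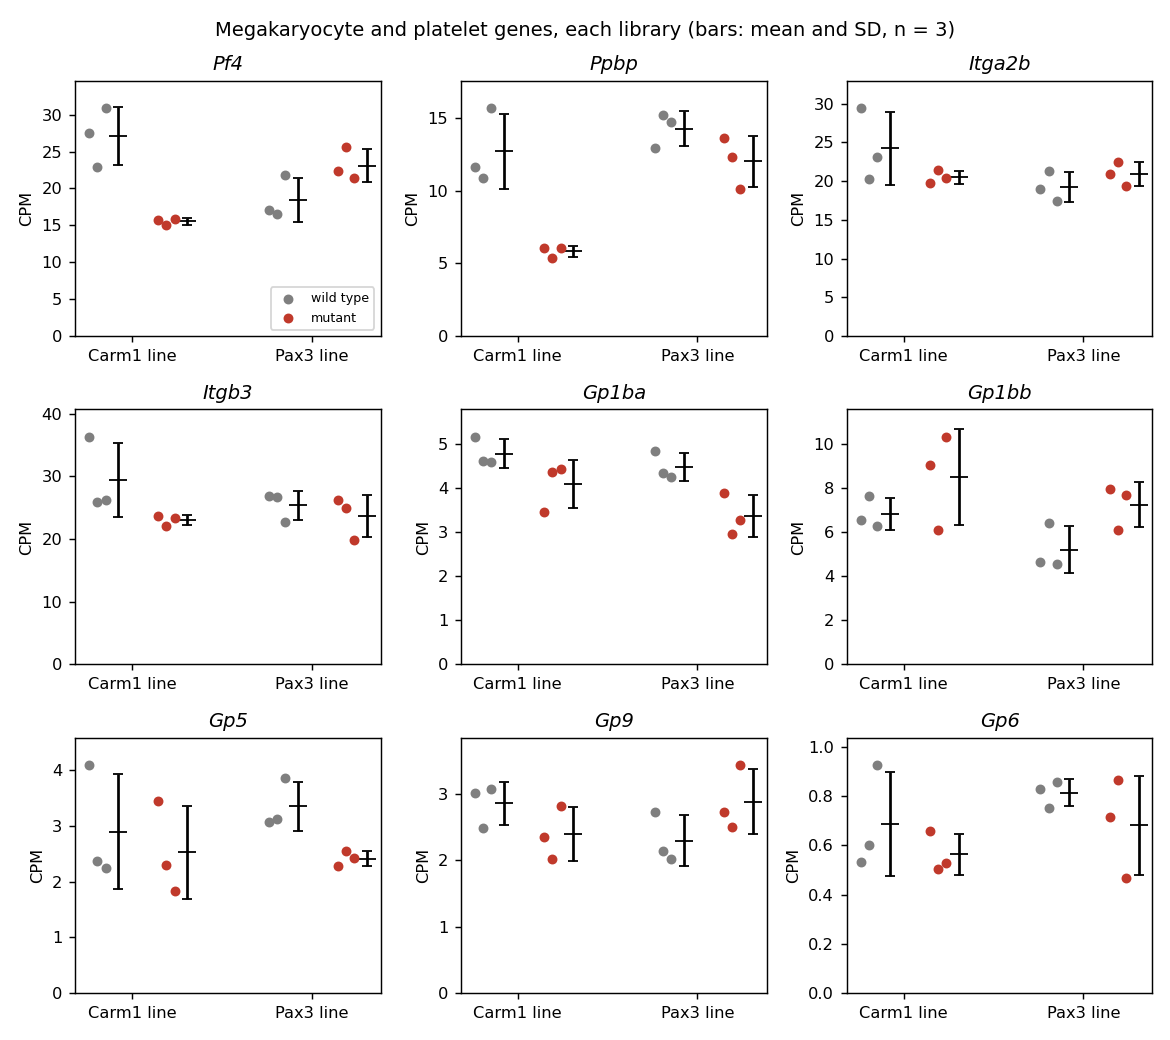
CPM of each of the 9 genes in every library (grey, wild type; red, mutant), with the mean and SD of each group of 3 beside the points and a vertical axis that starts at 0 in each panel. The *Carm1* KO/KO libraries lie below all wild-type libraries of their line for *Pf4*, *Ppbp*, *Itgb3* and *Gp1ba*, and the *Pax3* Sp2H/Sp2H libraries below theirs for *Gp1ba* and *Gp5*.

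The third called gene was *Itgb3*, the beta chain of the fibrinogen receptor, which also pairs with the integrin alpha V chain. It stood at 23.6, 22.1 and 23.3 CPM in *Carm1* KO/KO libraries and at 36.3, 25.9 and 26.3 in wild type. The groups did not overlap, although wild-type replicate 1 stood well above the others (log2 fold change -0.35, SE 0.11, adjusted *P* = 0.047, edgeR). The call was lost in 5 of 15 alternatives, among them without *Carm1* KO/KO replicate 1 (edgeR adjusted *P* = 0.13), 2 (0.16) or 3 (0.13) and without wild-type replicate 1 (log2 fold change -0.18, adjusted *P* = 0.14), with a range of 0.00017 to 0.16 over all 15. *Itga2b*, the alpha chain of the same receptor and an early mark of the lineage, stood at 19.8, 21.4 and 20.4 CPM against 29.4, 20.2 and 23.1. Its groups overlapped, and it did not pass (-0.23, SE 0.10, adjusted *P* = 0.17, edgeR). It passed without wild-type replicate 2 (-0.35, adjusted *P* = 0.025) and with no filter on low counts, while its adjusted *P* reached 0.63 elsewhere. *Itgav*, the other partner of *Itgb3*, stood at 84.8 CPM against 81.3 (0.06, adjusted *P* = 0.49, edgeR).

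None of the 5 genes of the Ib-IX-V complex and of glycoprotein VI passed in the *Carm1* line, by edgeR or DESeq2, and 0 had an unadjusted *P* below 0.05. *Gp1ba*, the chain of the complex that holds the von Willebrand factor site, stood at 3.46, 4.37 and 4.42 CPM in *Carm1* KO/KO libraries and at 5.16, 4.60 and 4.58 in wild type. These values did not overlap, but the nearest, 4.42 and 4.58, lay closer to each other than the SD of either group (log2 fold change -0.22, SE 0.17, adjusted *P* = 0.44, edgeR). Counting *Pf4*, *Ppbp* and *Itgb3*, the mutants lay below all wild types for 4 of the 9 genes, as they did for 15.7% of all genes tested, and above them for none, against 14.2% (30.0% did not overlap in either direction). *Gp1bb*, the beta chain of glycoprotein Ib, was the only one of the 9 with a higher mean in *Carm1* KO/KO embryos, at 9.05, 6.11 and 10.3 CPM against 6.52, 7.65 and 6.29. Its groups overlapped because of the low value of mutant replicate 2 (0.31, SE 0.15, adjusted *P* = 0.20, edgeR), and without that library it passed (0.50, adjusted *P* = 0.032, in a range of 0.032 to 0.66 over the alternatives). *Gp5*, a chain cleaved by thrombin, stood at 3.46, 2.30 and 1.83 CPM against 4.09, 2.36 and 2.24 (-0.16, SE 0.25, adjusted *P* = 0.74, edgeR). *Gp9*, a small chain needed to bring the complex to the surface, stood at 2.36, 2.02 and 2.83 CPM against 3.02, 2.49 and 3.07 (-0.25, SE 0.22, adjusted *P* = 0.52, edgeR). Both overlapped. *Gp6*, the collagen receptor, held 12, 9 and 9 counts in *Carm1* KO/KO libraries and 9, 14 and 19 in wild type. At this depth a difference was not detectable (-0.29, 95% interval -1.15 to 0.58, adjusted *P* = 0.72, edgeR).

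In the *Pax3* line, 24.5% of 15724 genes were called, and 2 of the 9 genes were, both higher in *Pax3* Sp2H/Sp2H embryos, against 14.0% of all genes in that direction. *Pf4* stood at 22.3, 25.6 and 21.4 CPM in the mutants and at 17.0, 16.5 and 21.9 in wild type. The highest wild-type library lay within the mutant range (log2 fold change 0.32, SE 0.10, adjusted *P* = 0.024, edgeR). The call was lost after correction for transcript length and GC content by offsets (0.03, adjusted *P* = 0.88) and without mutant replicate 2 (0.15), wild-type replicate 1 (0.12) or wild-type replicate 2 (0.11), in a range of adjusted *P* from 0.0030 to 0.88. *Ppbp* stood at 13.6, 12.3 and 10.1 CPM in the mutants and at 12.9, 15.2 and 14.7 in wild type. Its mean was thus lower where that of *Pf4* was higher, but its groups overlapped and it did not pass (-0.25, SE 0.11, adjusted *P* = 0.11, edgeR). It passed in 1 of 15 alternatives, with the offsets (-0.37, adjusted *P* = 0.023, in a range of 0.023 to 0.46).

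Neither integrin chain passed in the *Pax3* line. *Itga2b* stood at 20.9, 22.5 and 19.4 CPM in *Pax3* Sp2H/Sp2H libraries and at 19.0, 21.4 and 17.4 in wild type (log2 fold change 0.12, 95% interval -0.07 to 0.31, adjusted *P* = 0.36, edgeR). *Itgb3* stood at 26.2, 25.0 and 19.8 CPM against 26.8, 26.6 and 22.7 (-0.10, 95% interval -0.30 to 0.10, adjusted *P* = 0.49, edgeR). Both overlapped between the groups. *Gp1bb* was the second called gene, at 7.96, 6.10 and 7.68 CPM in the mutants and 4.64, 6.43 and 4.55 in wild type (0.49, SE 0.15, adjusted *P* = 0.019, edgeR). Replicate 2 of each group reached into the range of the other. The call was lost with length and GC offsets (0.27, adjusted *P* = 0.24) and without mutant replicate 1 (0.099) or 3 (0.087) or wild-type replicate 1 (0.084) or 3 (0.090), in a range of adjusted *P* from 0.0052 to 0.24.

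*Gp1ba* and *Gp5* were the 2 of 9 genes for which all *Pax3* Sp2H/Sp2H libraries lay below all wild types, as they did for 18.9% of all genes tested. For none did the mutants lie above all wild types, against 20.7%, and 39.6% of all genes did not overlap in either direction. *Gp1ba* stood at 3.89, 2.96 and 3.27 CPM against 4.83, 4.34 and 4.25 (log2 fold change -0.41, SE 0.17, adjusted *P* = 0.081, edgeR). *Gp5* stood at 2.28, 2.55 and 2.42 CPM against 3.07, 3.13 and 3.87 (-0.48, SE 0.20, adjusted *P* = 0.072, edgeR). Neither passed, except *Gp5* with length and GC offsets (adjusted *P* = 0.021, in a range of 0.021 to 0.27). *Gp9* stood at 2.73, 2.50 and 3.44 CPM in the mutants and at 2.73, 2.14 and 2.02 in wild type (0.33, SE 0.21, adjusted *P* = 0.27, edgeR). *Gp6* held 16, 19 and 11 counts against 17, 13 and 20 (-0.27, 95% interval -1.01 to 0.47, adjusted *P* = 0.64, edgeR). Both overlapped, and the *Gp6* interval is wide at these counts. Of the 5 genes of the Ib-IX-V complex and of glycoprotein VI, edgeR and DESeq2 each called 1 in the *Pax3* line. In edgeR 3 of them had an unadjusted *P* below 0.05.

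**Figure D2:**
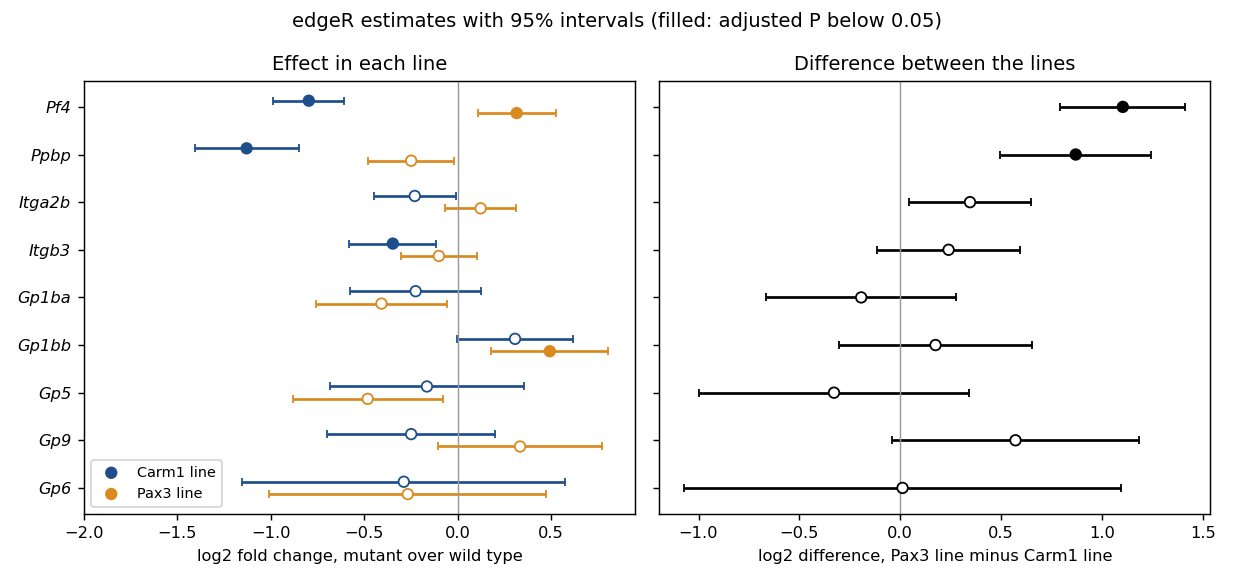
Log2 fold change of mutant over wild type for each gene in each line (left; blue, *Carm1* line; orange, *Pax3* line) and the difference of these effects, *Pax3* line minus *Carm1* line (right), with 95% intervals and filled points where the edgeR adjusted *P* is below 0.05. *Pf4* and *Ppbp* lie at -0.80 and -1.13 in the *Carm1* line, and theirs are the 2 filled differences, at 1.10 and 0.87.

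The effects of the 2 genotypes were compared as an interaction in 1 fit of all 12 libraries, in which 19.1% of 16292 genes differed. *Pf4* (difference 1.10 on the log2 scale, SE 0.15, adjusted *P* = 7.1e-06, edgeR) and *Ppbp* (0.87, SE 0.18, adjusted *P* = 0.0010, edgeR) were the 2 of 9 genes whose difference passed. For *Itgb3*, called in the *Carm1* line and not in the *Pax3* line, the difference itself did not pass (0.24, 95% interval -0.11 to 0.59, adjusted *P* = 0.36, edgeR). The same held for *Gp1bb*, called in the *Pax3* line alone (0.17, 95% interval -0.30 to 0.65, adjusted *P* = 0.66, edgeR). The differences of the other 5 genes, from -0.33 for *Gp5* to 0.57 for *Gp9*, had edgeR adjusted *P* values of 0.10 to 0.99. Among them, *Itga2b* had the lowest (0.35, 95% interval 0.04 to 0.65, adjusted *P* = 0.10, edgeR). Strain and colony differ between the lines along with the mutated gene, and their parts in these differences cannot be told apart.

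**Figure D3:**
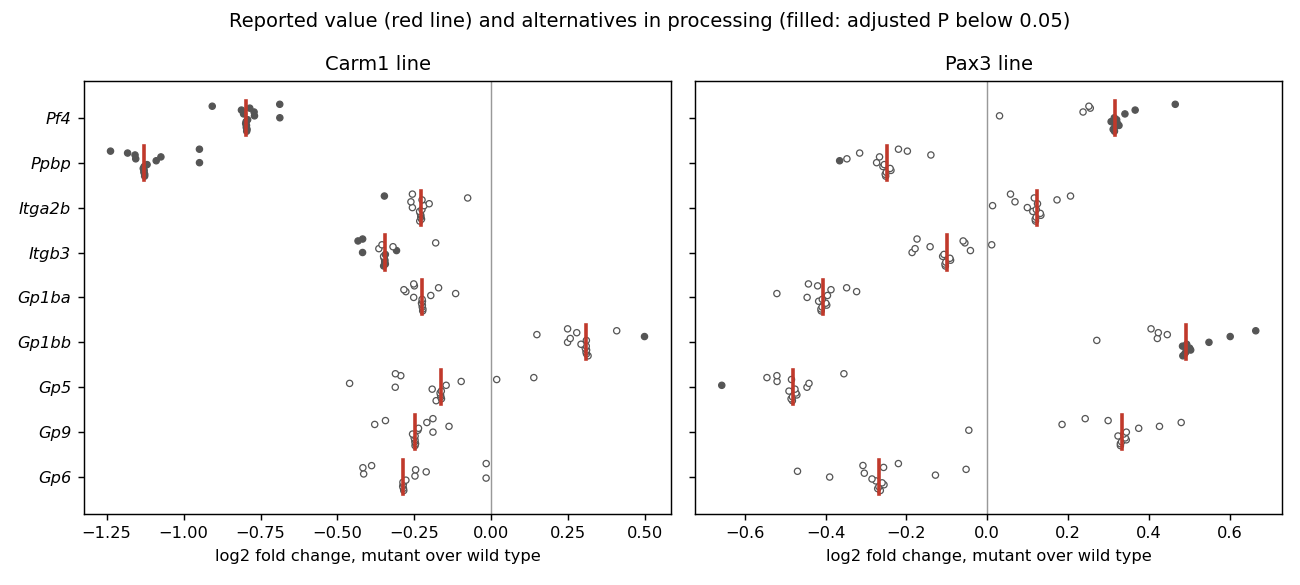
Log2 fold change of each gene as reported (red line) and under each alternative in processing (points, filled where the adjusted *P* is below 0.05) in the *Carm1* line (left) and the *Pax3* line (right). *Pf4* and *Ppbp* lie at -0.69 or lower in the *Carm1* line in every point, while *Pf4* ranges from 0.03 to 0.47 in the *Pax3* line.

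Summed over the 9 genes, the level was 83.0 ± 3.33 CPM in *Carm1* KO/KO embryos and 112 ± 13.3 in wild type (SD, n = 3), with no overlap. For the *Pax3* line the sum was 96.3 ± 7.18 CPM in mutants and 93.6 ± 2.58 in wild type (SD, n = 3), with overlap. The 2 chemokines accounted for most of the gap in the *Carm1* line, at 21.4 ± 0.867 against 39.8 ± 6.39 CPM, and the 2 integrin chains for 43.5 ± 0.157 against 53.7 ± 10.5. The 4 genes of the Ib-IX-V complex summed to 17.5 ± 2.41 CPM against 17.4 ± 1.32, a sum in which *Gp1bb* had the higher mean in mutants (8.49 against 6.82 CPM) and the other 3 genes the lower. Without *Gp1bb*, whose reads overlap another gene as given below, the remaining 8 of the 9 genes summed to 74.5 ± 1.19 CPM in *Carm1* KO/KO embryos and 105 ± 13.9 in wild type, and to 89.1 ± 7.60 against 88.4 ± 1.54 in the *Pax3* line. The median log2 fold change of the 9 genes was -0.25 in the *Carm1* line, with 8 lower and 1 higher, and -0.10 in the *Pax3* line, with 5 lower and 4 higher, while the median of all genes was 0.0014 and -0.0026.

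*Gp1bb* went apart from the other genes. Over the 12 libraries, with log2 CPM centred within each line, the correlations among the other 8 genes ranged from -0.26 to 0.77 (median 0.26, positive in 24 of 28 pairs), whereas those of *Gp1bb* with each of them ranged from -0.52 to 0.33 (median -0.34, positive in 1 of 8). These are descriptions over 12 libraries that share the contrast of genotypes. In the annotation, 1902 of the 2087 exonic bases of *Gp1bb* are also exonic in *Sept5*, a septin gene on the same strand at chr16:18620502-18629954, and how the counting divided reads over these bases is not stated in the sources used here. *Sept5*, chosen for this overlap after its values were seen, stood at 96.3, 80.6 and 104.9 CPM in *Carm1* KO/KO libraries and at 78.4, 81.0 and 77.8 in wild type (0.25, adjusted *P* = 0.037, edgeR). Mutant replicate 2 was the low library of its group for both genes. *Sept5* in the *Pax3* line stood at 84.9, 80.6 and 83.6 CPM in mutants and at 88.6, 84.1 and 93.4 in wild type (-0.10, adjusted *P* = 0.23, edgeR), not higher in the mutants as *Gp1bb* was. *Gp1bb* held 7.57 to 9.83 counts per 100 *Sept5* counts in *Carm1* KO/KO libraries, 8.09 to 9.45 in their wild types, 7.57 to 9.37 in *Pax3* Sp2H/Sp2H libraries and 4.87 to 7.64 in theirs. The part of shared reads in the *Gp1bb* values was not tested.

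**Figure D4:**
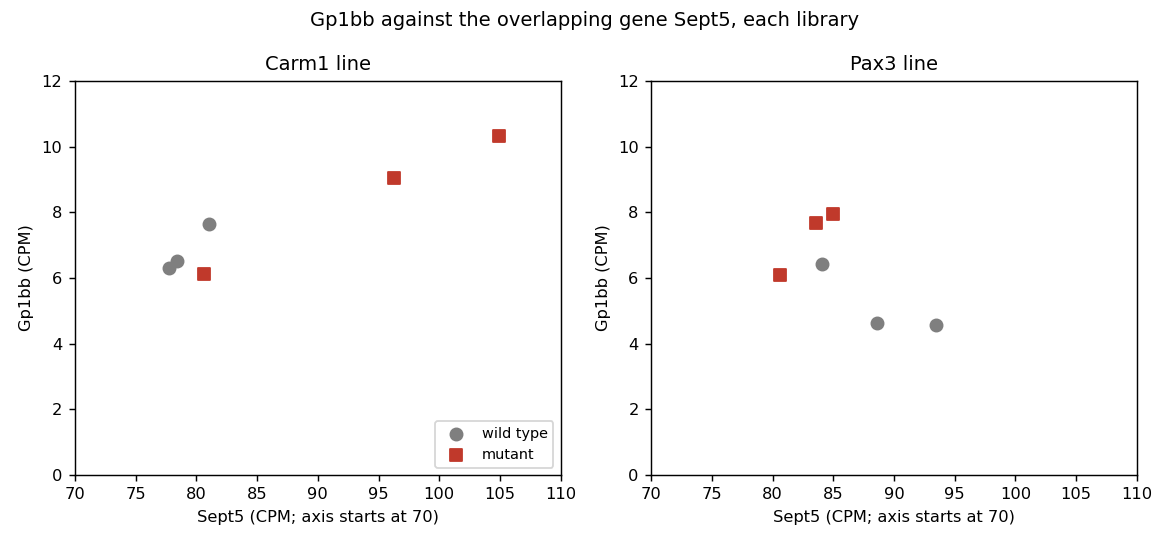
CPM of *Gp1bb* against CPM of the overlapping gene *Sept5* in each library of the *Carm1* line (left) and the *Pax3* line (right); circles are wild type, squares are mutants, and the horizontal axis starts at 70. In the *Carm1* line the mutant libraries with the highest *Sept5*, 96.3 and 104.9 CPM, also held the most *Gp1bb*, 9.05 and 10.3 CPM.

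Transcription factors of the lineage, several of which also act in red cells, were examined next. Genes counted as fallen or risen, here and below, are those called lower or higher in the mutants. Of 18 factors, 9 fell in the *Carm1* line and 1 (*Gata2*) rose, with a median of -0.19, where 7.83% of all genes fell and 5.49% rose. The *Pax3* line had 2 lower and 4 higher, with a median of 0.016, where 10.5% of all genes fell and 14.0% rose. *Gata1*, the factor that megakaryocytes and red cells share, fell from 20.7 ± 0.593 CPM in wild type to 13.4 ± 2.46 in *Carm1* KO/KO embryos (log2 fold change -0.62, adjusted *P* = 4.7e-05, edgeR). *Nfe2*, needed for platelet release, stood at 16.7 CPM against 24.7 (-0.57, adjusted *P* = 3.0e-05, edgeR). *Tal1* (-0.58), the repressor gene *Gfi1b* (-0.74), the GATA1 cofactor gene *Zfpm1* (-0.34) and *Runx1* (-0.40) also fell, with edgeR adjusted *P* values of 9.7e-10, 0.00022, 0.00018 and 0.0022. *Fli1*, an ETS factor of the lineage, stood at 30.6 CPM against 31.0 (-0.02, adjusted *P* = 0.87, edgeR). *Gfi1b* (-0.46, adjusted *P* = 0.017, edgeR) and *Runx1* (-0.30, adjusted *P* = 0.025, edgeR) fell in the *Pax3* line as well. *Ldb1*, a scaffold of the GATA1 complex, rose there (0.34, adjusted *P* = 7.7e-05, edgeR). *Gata1* (0.03, adjusted *P* = 0.84) and *Nfe2* (-0.00096, adjusted *P* = 1.0) did not pass in edgeR.

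*Thpo*, thrombopoietin, the hormone that drives the lineage, was low and stood at 1.09 CPM in *Carm1* KO/KO embryos against 1.52 (log2 fold change -0.47, adjusted *P* = 0.36, edgeR) and at 1.10 against 0.685 in the *Pax3* line (0.63, adjusted *P* = 0.23, edgeR). Of the 10 genes of this signalling list, *Kit* rose in the *Carm1* line (0.19, adjusted *P* = 0.031, edgeR) and *Jak2* fell in the *Pax3* line (-0.23, adjusted *P* = 0.0077, edgeR), with medians of -0.14 in both. These are 10% of the list in each line, below the 13.3% and 24.5% of all genes, and DESeq2 called none of the list in the *Carm1* line.

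Other genes of granules and secretion were called in both directions. In the *Carm1* line 2 of 19 tested genes fell (*F5* and *Clu*) and 2 rose (*Vwf* and *Stxbp2*), with a median of -0.10, and with *Pax3* Sp2H/Sp2H 2 fell (*F5* and *Thbs1*) and 1 rose (*Vamp8*), with a median of -0.06. The called shares were 21.1% and 15.8%, against 13.3% and 24.5% of all genes, and DESeq2 called 2 of the list in the *Carm1* line. *F5*, coagulation factor V, fell in both lines, to 3.58 from 7.20 CPM with *Carm1* KO/KO (log2 fold change -0.99, adjusted *P* = 0.00011, edgeR) and to 3.52 from 5.97 with *Pax3* Sp2H/Sp2H (-0.76, adjusted *P* = 0.0027, edgeR). *Vwf*, von Willebrand factor, made in endothelium and megakaryocytes, stood at 42.4, 40.8 and 39.9 CPM in *Carm1* KO/KO libraries and at 38.3, 30.8 and 27.3 in wild type. It rose where *Pf4* and *Ppbp* fell (0.36, adjusted *P* = 0.012, edgeR). *Vamp8*, a protein of granule fusion, rose in the *Pax3* line from 14.4 to 26.3 CPM (0.88, adjusted *P* = 2.7e-06, edgeR), and *Thbs1*, thrombospondin, fell (-0.28, adjusted *P* = 0.0057, edgeR). *Clu*, clusterin, fell in the *Carm1* line (-0.31, adjusted *P* = 0.027, edgeR).

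Among 25 tested genes of other platelet receptors and their signalling, 2 fell and 1 rose in the *Carm1* line (median -0.02), and 2 fell in the *Pax3* line (median -0.04). The called shares, 12% and 8%, were below the 13.3% and 24.5% of all genes. *F2rl2*, a thrombin receptor (-0.67, adjusted *P* = 0.019, edgeR), and *Fermt3*, kindlin 3, which activates integrins (-0.26, adjusted *P* = 0.026, edgeR), fell in *Carm1* KO/KO embryos. *Plcg2*, a phospholipase below the collagen receptor, rose (0.38, adjusted *P* = 0.042, edgeR). *Fcer1g*, the signalling chain of glycoprotein VI, did not pass in the *Carm1* line (0.13, adjusted *P* = 0.60, edgeR) or the *Pax3* line (0.39, adjusted *P* = 0.10, edgeR). DESeq2 called none of these 25 genes in the *Carm1* line, where 6 had an unadjusted *P* below 0.05 in edgeR. The laminin and collagen receptor chains *Itga6* (-0.36, adjusted *P* = 0.00029, edgeR) and *Itgb1* (-0.16, adjusted *P* = 0.049, edgeR) fell in the *Pax3* line. Of 12 genes of platelet production and the cytoskeleton, *Tuba4a*, an alpha tubulin (-0.72, adjusted *P* = 8.5e-10, edgeR), and *Plek*, pleckstrin (-0.48, adjusted *P* = 9.6e-05, edgeR), fell in the *Carm1* line and *Myl9*, a myosin light chain, rose (0.15, adjusted *P* = 0.034, edgeR), with a median of -0.03. *Gsn*, gelsolin (-0.22, adjusted *P* = 0.0078, edgeR), and *Tpm4*, a tropomyosin (-0.17, adjusted *P* = 0.037, edgeR), fell in the *Pax3* line, with a median of -0.09. The called shares of this list were 25% and 16.7%, against 13.3% and 24.5% of all genes. Of 4 enzymes of eicosanoid synthesis none passed in either line by edgeR or DESeq2, with medians of -0.24 and -0.04, and 1 in the *Carm1* line and 0 in the *Pax3* line had an unadjusted *P* below 0.05.

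Of 10 genes for ligands of the platelet receptors, 6 fell in the *Carm1* line (*Col1a1*, *Col1a2*, *F2*, *Fga*, *Fgb* and *Fgg*) and 1 (*Vwf*) rose, with a median of -0.33. The called shares of this list were 70% in the *Carm1* line and 10% in the *Pax3* line, against 13.3% and 24.5% of all genes. The fibrinogen chains, which form the ligand of the integrin and are made in the liver, were among the genes that fell in the *Carm1* line. *Fgg* stood at 6.48 CPM against 16.1 (log2 fold change -1.31, adjusted *P* = 9.2e-10, edgeR), *Fga* at 11.8 against 24.4 (-1.04, adjusted *P* = 0.0018, edgeR) and *Fgb* at 14.0 against 24.4 (-0.80, adjusted *P* = 0.0020, edgeR). Prothrombin, *F2*, fell as well (-1.01, adjusted *P* = 3.0e-07, edgeR). *Fga* was the 1 gene of 10 called in the *Pax3* line (-0.31, adjusted *P* = 0.021, edgeR). All 10 were lower in the mutants there, with a median of -0.08.

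**Figure D5:**
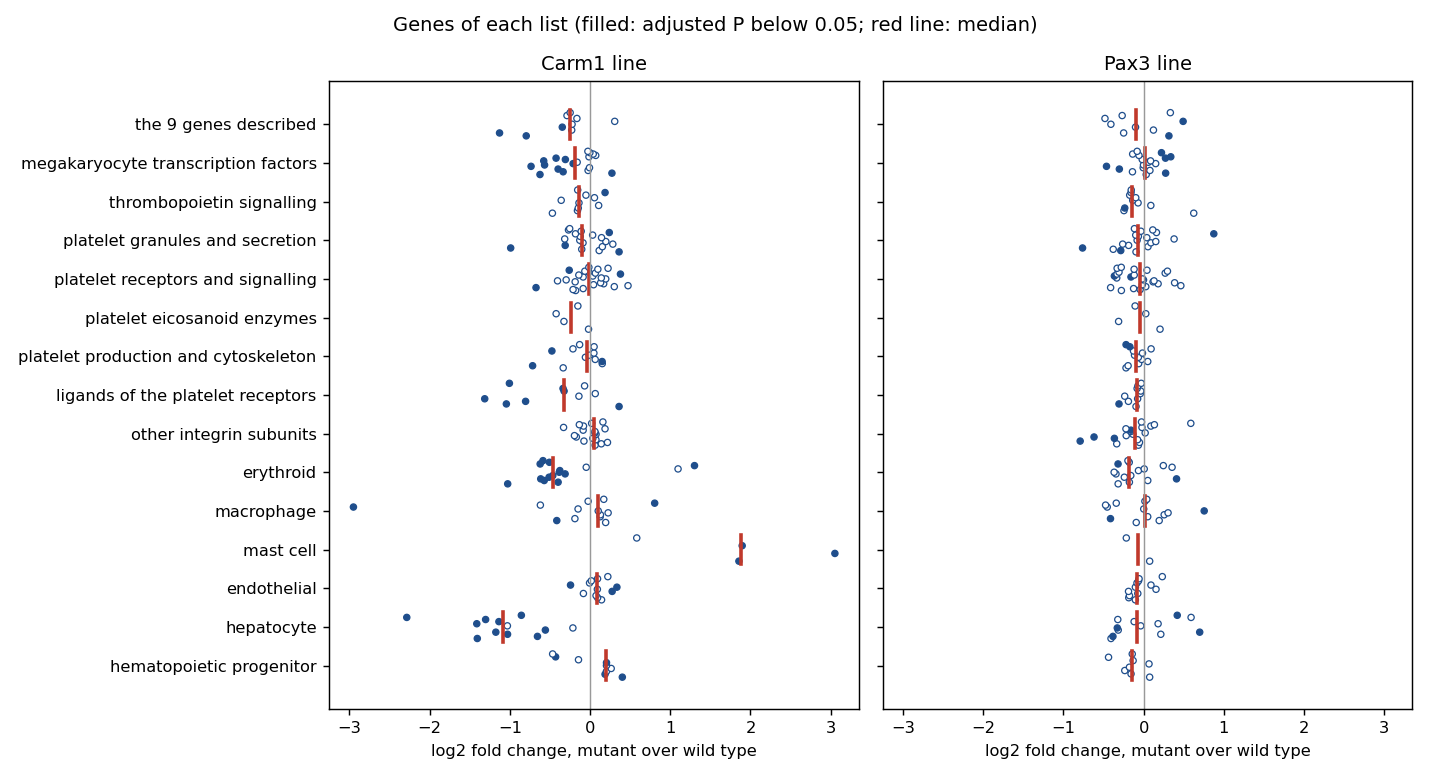
Log2 fold change of every tested gene of each list in the *Carm1* line (left) and the *Pax3* line (right), with filled points where the edgeR adjusted *P* is below 0.05 and a red line at the list's median. The hepatocyte and erythroid lists have medians of -1.08 and -0.46 in the *Carm1* line, against -0.25 for the 9 genes at the top.

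Markers of other cell types also moved in the *Carm1* line, where 7.83% of all genes fell and 5.49% rose. The called shares were 86.7% for erythroid, 83.3% for hepatocyte and 75% for mast cell genes, against 13.3% of all genes. They were 44.4% for progenitor, 25% for endothelial and 23.1% for macrophage genes. The mast cell share rests on 4 tested genes of 9 listed, and DESeq2 called 2. The filter on low counts can pass a gene through the group where it is high, so this share is not comparable with that of all genes. Of 15 erythroid genes, 12 fell and 1 (*Hbb-bh1*) rose, with a median of -0.46, although their summed level, led by globins, was 8004 to 9340 CPM in *Carm1* KO/KO libraries and 5987 to 10106 in wild type. Of 12 hepatocyte genes 10 fell, with a median of -1.08 and sums of 911 to 1087 CPM against 1654 to 2001. The remaining lists showed no such shared decrease. Among 13 macrophage genes 2 fell and 1 rose (sums 175 to 196 CPM against 174 to 191), among 12 endothelial genes 1 fell and 2 rose (462 to 492 against 437 to 471; DESeq2 called 1), and among 9 progenitor genes 1 fell and 3 rose (226 to 231 against 191 to 198). Of 4 tested mast cell genes 3 rose, with sums over the 9 listed of 18.3 to 18.8 CPM against 5.03 to 8.14, while *Fcer1a* and *Mrgprb1* were at 0 in every library of the line. The part of these cell types in the values of *Pf4*, *Ppbp* and *Itgb3* was not tested.

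In the *Pax3* line, where 24.5% of all genes were called, 1 erythroid gene of 15 fell and 1 rose (13.3%), and 1 macrophage gene of 13 fell and 1 rose (15.4%). Of 12 hepatocyte genes 2 fell and 2 rose (33.3%), and 8 had an unadjusted *P* below 0.05. No endothelial, progenitor or mast cell gene passed by edgeR or DESeq2, and 3 of 12, 2 of 8 and 0 of 2 had an unadjusted *P* below 0.05. Summed levels were 8466 to 10842 CPM in *Pax3* Sp2H/Sp2H libraries against 6583 to 9324 in wild type for erythroid genes and 1070 to 1173 against 1237 to 1497 for hepatocyte genes, with no overlap in the latter.

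The genes whose levels most resembled the sum of the 9 were sought among the 14487 genes whose mean reached 1 CPM in both lines, by Pearson's r of log2 CPM centred within each line over 12 libraries. The 8 with the highest r were *Asf1b* (0.95), *Sdccag3* (0.94), *Pipox* (0.91), *Atat1* (0.90), *Gmip* (0.90), *Trim13* (0.90), *Gys2* (0.90) and *Gm16576* (0.90). None of them belongs to the platelet lists used here. With so few libraries and so many genes, these values are a description.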

How the data were processed

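Per the labels and the study's methods, the authors homogenized whole embryos, selected polyadenylated RNA, sequenced paired reads, aligned them to mm10 with STAR and used featureCounts to assign them to genes. What they deposited are unnormalized counts, whole numbers for each gene in each library. Tool versions, strand and the handling of reads on shared exons are not given in the sources used here.

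Each line was tested alone with edgeR 4.0.16 (R 4.3.3, limma 3.58.1): TMM, filterByExpr, robust quasi-likelihood test, Benjamini-Hochberg adjustment over all genes tested, threshold 0.05. The scripts were tested on simulated data with known changes. The line difference was an interaction in 1 fit of 12 libraries. The total count per library, 17183344 to 23518692, limits the precision of low genes, and intervals of 95% come from the fits. Replicates differed by more than counting noise (chi-square per degree of freedom at least 3.14), and an exact permutation test of 3 against 3 cannot go below *P* = 0.1. GENCODE M21 (GRCm38, the build of mm10) held 21777 of the symbols directly and 1247 under a newer name; 396 were not found.

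The 9 genes and all lists were chosen with earlier results of these data known. Named genes were the 9, the targeted genes, chosen factors, receptors and ligands, and up to 3 called genes per platelet list and line with the largest change and a mean of at least 1 CPM. Not every gene that this rule names is reported here. Alternatives were DESeq2 1.42.0 (the study's tool), RLE and upper-quartile scaling, no filter, at least 10 counts in every library, 1 fit of 12 libraries, a replicate block, a term for libraries with at least 100 Y-linked counts, length and GC offsets (splines with 5 degrees of freedom) and leaving out each library.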

Additional observations from a re-analysis of the deposited data

Results flagged for a closer look

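*Pf4* and *Ppbp* stood out because the effect of the mutant genotype differed between the lines in the interaction test of edgeR. For *Pf4* the *Pax3* effect exceeded the *Carm1* effect by 1.10 on the log2 scale (95% interval 0.79 to 1.41, adjusted *P* = 7.1e-06), with all 3 *Carm1* KO/KO libraries below all wild types and overlapping groups in the *Pax3* line. For *Ppbp* the difference was 0.87 (95% interval 0.50 to 1.24, adjusted *P* = 0.0010), again with no overlap in the *Carm1* line and overlap in the *Pax3* line. The part of strain and colony in these differences cannot be told apart from that of the mutated gene.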

How the results depend on the processing

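Calls of *Pf4* and *Ppbp* in the *Carm1* line and of their difference between the lines held under every alternative run. The effects behind the *Pf4* difference moved with the length and GC offsets. Its log2 fold change was then -0.77 in the *Carm1* line and 0.03 in the *Pax3* line, against -0.80 and 0.32 as reported. For the difference, 2 to 3 of the 9 genes were called. The third was *Itga2b*, called without *Carm1* wild-type replicate 2 or without *Pax3* wild-type replicate 2. Genes called numbered 2106 in the *Carm1* line, 3271 with length and GC offsets and 1224 to 2290 without each library in turn. In the *Pax3* line they numbered 3851, 2431 with the offsets and 2454 to 4103 without each library. DESeq2 called 1435 and 3291. Of the 9 genes, 2 to 4 were called in the *Carm1* line and 0 to 1 in the *Pax3* line without each library in turn, with 0 lacking *Pax3* wild-type replicate 1. With the offsets the 2 called in the *Pax3* line were *Ppbp* and *Gp5* in place of *Pf4* and *Gp1bb*. Uncalled values changed sign for *Gp5* in the *Carm1* line without *Carm1* KO/KO replicate 3 (0.017) or wild-type replicate 1 (0.14; range without each library -0.46 to 0.14), for *Gp9* in the *Pax3* line with the offsets (-0.046) and for *Itgb3* there without *Pax3* Sp2H/Sp2H replicate 3 (0.011; range -0.18 to 0.011). The cause was not tested. *Gp6* gave no value in the *Carm1* line with at least 10 counts in every library, since 3 libraries held 9. The term for Y-linked counts marks 1 library there and gave nearly the same values for *Pf4* and *Ppbp* as leaving that library out.

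Replicate numbers were not taken as pairs. Same-numbered libraries correlated between -0.053 and -0.0016 in the *Carm1* line and between -0.079 and 0.25 in the *Pax3* line. For libraries of different number the ranges were -0.014 to 0.059 and -0.36 to 0.24. As the ranges of the *Pax3* line overlap, these values cannot decide on pairing there. With the replicate number as a block, 1787 and 4177 genes were called, and the same 3, 2 and 2 of the 9 genes in the *Carm1* line, the *Pax3* line and their difference. Genes of few counts, *Gp6* above all, are limited by depth.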

Other observations

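The ratio of the chemokine genes was described after its values were seen. For every 100 counts of *Pf4*, *Ppbp* held 38.3, 35.8 and 38.1 counts in *Carm1* KO/KO libraries and 42.5, 47.4 and 50.9 in wild type. It held 61.1, 48.2 and 47.3 counts in *Pax3* Sp2H/Sp2H libraries and 75.9, 92.3 and 67.4 in wild type. In these libraries the mutant values lay below the wild-type values of the same line. An exact permutation test of the ratio gave *P* = 0.1 in each line. With 3 against 3 it cannot go lower, so it cannot decide whether the ratio differs. The log2 fold change of *Ppbp* minus that of *Pf4* was -0.33 in the *Carm1* line and -0.56 in the *Pax3* line, and -0.32 and -0.40 with length and GC offsets. The longest annotated transcript has 588 bases for *Pf4* and 1083 for *Ppbp*.

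Of 18 other integrin subunit genes none passed in the *Carm1* line by edgeR or DESeq2 (median log2 fold change 0.05, 3 with an unadjusted *P* below 0.05), and 4 fell in the *Pax3* line (*Itga4*, *Itga6*, *Itga7* and *Itgb1*, median -0.10), a share of 22.2% against 24.5% of all genes. *Itga4*, the alpha 4 chain, stood at 50.6, 44.9 and 45.8 CPM in *Pax3* Sp2H/Sp2H libraries and at 88.5, 79.2 and 76.9 in wild type (-0.79, adjusted *P* = 1.6e-09, edgeR). *Itga7*, a laminin receptor chain of muscle, stood at 2.85 CPM against 4.38 (-0.62, adjusted *P* = 0.012, edgeR).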
